A study of Mus musculus with 8 samples.

Results

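Accessible chromatin was described along a stretch of mouse chromosome 15 from 97 to 100 Mb in MIN6 cells with an empty vector or a Klf4 plasmid. Its members were all peaks wholly inside the stretch, 443 of 100099 in the empty vector list and 554 of 128538 in the Klf4 list, 997 of 228637 in both. MIN6 is a mouse beta cell line from an insulinoma driven by a viral T antigen, and all cells carried the genotype label WT. Both groups were kept 48 hours with a lipid transfection reagent, 4 libraries with pcDNA 3 Empty Vector and 4 with pGloMyc-Klf4, so the plasmids differ by name in backbone as well as insert. Each plasmid has 1 merged peak list, so every value below is 1 value per plasmid, with no spread between libraries, no known read depth and no test between plasmids. The stretch was picked with the list-specific peaks of these same lists known, and its peak counts and strengths are therefore a description. Intervals are 95% Wilson intervals over peaks or genes and cover counting error only; neighbouring peaks share their surroundings and are not independent.

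In ATAC-seq a transposase inserts adapters where DNA is not wrapped in nucleosomes, so that fragments pile up over promoters and enhancers in use. Klf4, a Krüppel-like zinc finger protein, recognises CACCC boxes in GC-rich DNA, is known for opening chromatin in reprogramming, and acts in epithelial cells. A promoter that is open in most cells usually has many CpG sites, while cell type-specific elements tend to lie far from gene starts and inside introns. The stretch holds 75 protein-coding genes (GRCm38, RefSeq), among them Pfkm, a phosphofructokinase of glycolysis; Cacnb3, a subunit of voltage-gated calcium channels that helps control insulin release; Vdr, the vitamin D receptor; Wnt1 and Wnt10b, secreted ligands; Kmt2d, a histone methyltransferase of enhancers; the tubulin genes Tuba1a, Tuba1b and Tuba1c; the water channel genes Aqp2, Aqp5 and Aqp6; and 9 olfactory receptor genes.

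As a check of the cell type, peaks lay in or within 10 kb of all 8 beta cell genes looked at, covering 1193 to 6396 bp with the empty vector and 1730 to 7825 bp with Klf4. Starts of Ins1, Pdx1, Nkx6-1 and Iapp lay under peaks of both lists and that of Slc2a2 under neither. The 7 genes of other cells also had peaks nearby (565 to 4750 bp and 433 to 7421 bp), with the start of Cd68 under peaks of both lists and those of Ptprc and Cela2a under none. Summed over the beta cell genes, peaks covered 34873 bp (empty vector) and 37892 bp (Klf4), and over the genes of other cells 18969 and 29615 bp. Among the latter, Krt19 had 1233 and 4704 bp and Cdh5 2064 and 4755 bp. Ptprc (565 and 433 bp) and Cela2a (1672 and 925 bp) went the other way. The part of other cell types in the gene values below was not tested, and a peak near a gene does not measure its expression.

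Examples of gene starts that lay under a peak of only 1 list, and 1 start under both for comparison, are shown first. They are few beside the peaks away from starts: 14 of the 204 Klf4 peaks without an empty vector peak lay on a start window. In each sequence the 250 bases before a RefSeq start (build GRCm38.p6) read 5′ to 3′ on the gene's strand, and capitals mark CACCC or its reverse complement GGGTG. The first 6 starts lay under a Klf4 peak and under no empty vector peak: Zfp641 (a zinc finger protein; chr15:98296162-98296411, minus strand), Hdac7 (a histone deacetylase; chr15:97844503-97844752, minus, the outermost of its 4 starts), Dhh (the ligand desert hedgehog; chr15:98898541-98898790, minus), Prph (the intermediate filament protein peripherin; chr15:99054924-99055173, plus), Aqp2 (a water channel of the kidney; chr15:99578806-99579055, plus) and H1f7 (a testis linker histone; chr15:98257308-98257557, minus). The seventh, Olfr281 (an olfactory receptor; chr15:98456062-98456311, plus), lay under an empty vector peak only. The last, Kansl2 (a subunit of the NSL acetyltransferase complex; chr15:98534270-98534519, minus), lay under the strongest peak of the stretch in both lists. They were chosen after their peaks had been seen.
Zfp641: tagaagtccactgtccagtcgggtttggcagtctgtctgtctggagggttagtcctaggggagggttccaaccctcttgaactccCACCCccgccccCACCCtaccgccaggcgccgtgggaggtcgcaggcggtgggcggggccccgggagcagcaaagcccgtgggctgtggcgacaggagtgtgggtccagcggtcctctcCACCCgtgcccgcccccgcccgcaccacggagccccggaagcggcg
Hdac7: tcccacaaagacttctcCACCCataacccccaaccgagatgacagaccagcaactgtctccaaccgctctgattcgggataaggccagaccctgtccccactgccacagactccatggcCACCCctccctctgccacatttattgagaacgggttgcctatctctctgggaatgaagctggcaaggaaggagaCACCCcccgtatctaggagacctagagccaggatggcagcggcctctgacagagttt
Dhh: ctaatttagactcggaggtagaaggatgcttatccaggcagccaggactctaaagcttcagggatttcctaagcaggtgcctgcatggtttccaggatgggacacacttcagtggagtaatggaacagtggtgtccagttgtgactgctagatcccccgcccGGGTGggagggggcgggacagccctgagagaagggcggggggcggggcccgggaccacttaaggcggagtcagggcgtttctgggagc
Prph: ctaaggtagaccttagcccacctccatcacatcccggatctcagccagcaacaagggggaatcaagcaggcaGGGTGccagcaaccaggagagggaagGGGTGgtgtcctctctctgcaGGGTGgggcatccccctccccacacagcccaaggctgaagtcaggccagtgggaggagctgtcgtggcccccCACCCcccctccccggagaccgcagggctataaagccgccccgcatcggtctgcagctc
Aqp2: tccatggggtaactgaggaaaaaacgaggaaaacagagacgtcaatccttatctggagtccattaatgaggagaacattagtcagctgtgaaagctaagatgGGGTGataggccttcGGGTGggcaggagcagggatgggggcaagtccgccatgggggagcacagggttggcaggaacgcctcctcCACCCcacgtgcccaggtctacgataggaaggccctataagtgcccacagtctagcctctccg
H1f7: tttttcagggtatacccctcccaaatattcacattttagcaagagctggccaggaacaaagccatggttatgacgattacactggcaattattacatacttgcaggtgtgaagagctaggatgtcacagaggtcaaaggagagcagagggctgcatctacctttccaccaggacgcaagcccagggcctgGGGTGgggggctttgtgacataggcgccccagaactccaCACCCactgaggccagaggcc
Olfr281: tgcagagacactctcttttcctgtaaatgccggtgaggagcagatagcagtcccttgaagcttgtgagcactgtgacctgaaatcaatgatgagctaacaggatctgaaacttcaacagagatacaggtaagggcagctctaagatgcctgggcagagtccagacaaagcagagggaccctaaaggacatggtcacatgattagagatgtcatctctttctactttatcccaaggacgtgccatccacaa
Kansl2: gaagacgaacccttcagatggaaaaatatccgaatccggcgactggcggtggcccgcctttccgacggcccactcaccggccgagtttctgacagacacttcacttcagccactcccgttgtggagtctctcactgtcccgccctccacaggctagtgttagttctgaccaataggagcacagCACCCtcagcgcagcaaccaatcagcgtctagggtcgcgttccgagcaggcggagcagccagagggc

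Zfp641 had 3 such motifs, Hdac7 3, Dhh 1, Prph 4, Aqp2 3, H1f7 2, Olfr281 0 and Kansl2 1. The Klf4 peak at Aqp2 began at chr15:99579008, past all 3 of its motifs, so none of them lay under the peak. Zfp641 and Kansl2 had many CpG sites in these 250 bases (20 and 18), the other 5 starts under Klf4 peaks had 3 to 9, and Olfr281 had 2. The motif is short and common: of all 32851 RefSeq start windows of 300 bases (250 before and 50 after a start), 57.5% held it on either strand, and a match is a description of letters.

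The first question was whether the number and extent of accessible regions differed between the plasmids. The Klf4 list had 111 more peaks in the stretch (ratio 1.25), against a ratio of 1.29 on the rest of chromosome 15 and 1.28 over all main chromosomes. Its peaks covered 458 kb against 345 kb (ratio 1.33), against 1.32 on the rest of chromosome 15 and 1.28 over all main chromosomes. Both ratios were thus close to those of the surroundings, while the peaks themselves were denser, with 135 to 161 empty vector peaks per Mb against 77 and 99 in the Mb before and after. Among 669 consecutive stretches of 3 Mb with at least 50 peaks in each list, it held the most empty vector peaks (443, next 370) and the third most Klf4 peaks (554). With Klf4, 4 other stretches were about as dense, with 549 to 560 peaks, on chromosomes 4, 5, 8 and 11.

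Counting an overlap of at least 1 bp, 204 of its 554 Klf4 peaks had no empty vector peak (36.8%, interval 32.9 to 40.9%), against 36.7% of all Klf4 peaks. Without a Klf4 peak were 89 of its 443 empty vector peaks (20.1%, interval 16.6 to 24.1%), against 18.8% of all empty vector peaks. With both lists limited by −log10 q the empty-vector-only share was 10.8% at 5 or more, 13.2% at 10 or more and 9.80% at 50 or more, and it was 10.7% with the top 20000 peaks. The Klf4-only share was 23.8% at 50 or more. Shares of the whole lists under these limits are not given, so these values cannot be compared with them. Without a limit both shares were near those of the whole lists, and the Klf4-only share ranked 260 of the 669 stretches. Most matched peaks were matched singly: 351 empty vector peaks had 1 Klf4 counterpart and 3 had several, and 343 Klf4 peaks had 1 empty vector counterpart and 7 had several.

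The stretch differed from the rest in how strong its list-specific peaks were by −log10 q, the peak caller's measure of significance. At a −log10 q of at least 20, 45 of 229 Klf4 peaks were Klf4-only (19.7%, interval 15.02 to 25.28%), against 7.24% over the main chromosomes. The corresponding figures for the empty vector were 5 of 170 (2.94%, interval 1.26 to 6.70%) and 0.121%. No other stretch of 3 Mb had more than 21 strong Klf4-only or 2 strong empty-vector-only peaks, and the medians were 2 and 0. Neither count is independent of how the stretch was picked.

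**Figure D1:**
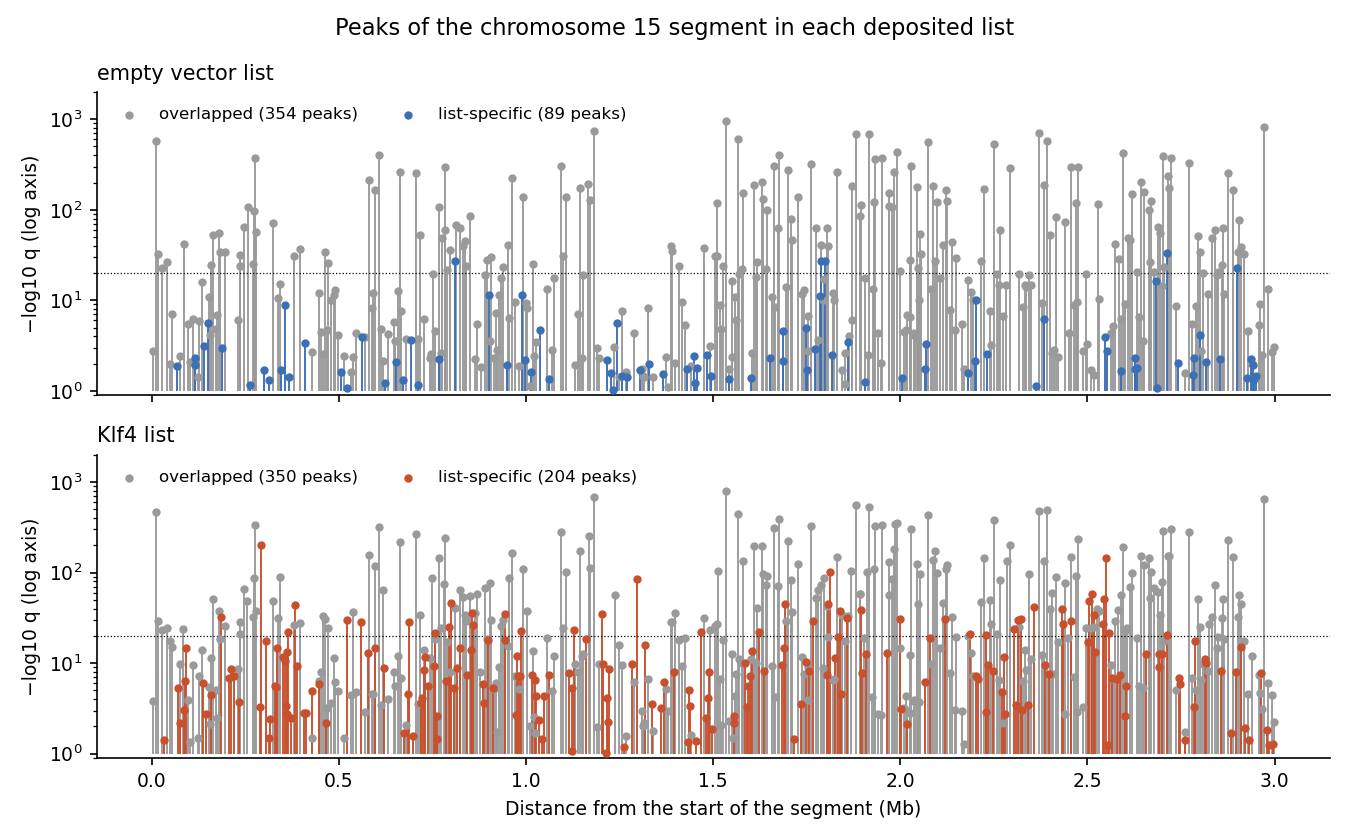
Peaks of the chromosome 15 stretch by distance from its start (Mb, horizontal) and −log10 q (vertical, log axis), 1 panel per list; grey peaks overlap a peak of the other list, coloured ones do not, and the dotted line marks 20. Coloured peaks above the line number 5 in the empty vector panel and 45 in the Klf4 panel, spread over the whole stretch, while the tallest peaks of both panels are grey.

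The strongest Klf4-only peak, at chr15:97291706-97292592 inside the body of Pced1b, a gene for a PC-esterase domain protein, had a −log10 q of 201. Its fold enrichment over local background was 7.90. It was 887 bp wide, lay 8181 bp from the nearest empty vector peak and ranked first of all 47185 Klf4-only peaks by −log10 q, but 437th by fold enrichment. The next, at chr15:99549800-99550596 (−log10 q 143, fold 6.74), lay between genes, 14920 bp from Faim2, an inhibitor of Fas-driven cell death. The third, at chr15:98812875-98813715 inside Prkag1, a regulatory subunit of the energy sensor AMPK, had a −log10 q of 101.1 at 4.61-fold enrichment. The fourth, at chr15:98295725-98296514, covered the start of Zfp641 printed above (−log10 q 84.8, fold enrichment 7.23), 6190 bp from the nearest empty vector peak. Of the 10 strongest it was the only one on a RefSeq start window. Ranks 5 to 10 had a −log10 q of 57.6 to 44.9 and fold enrichments of 2.53 to 4.89. They lay in Faim2 (chr15:99511783-99512637 and chr15:99505261-99506373), near Faim2 (chr15:99544099-99544405), in Hdac7 (chr15:97800740-97802292), in the lncRNA gene Gm34152 (chr15:98691407-98691863) and in Ddn, which encodes the postsynaptic protein dendrin (chr15:98806613-98807200). Exons and introns were not told apart, since the gene table gives gene ends only.

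The 45 strong Klf4-only peaks formed 21 groups separated by more than 50 kb. The group with the most held 10 peaks over 126 kb at Nckap5l, Faim2 and toward Aqp2 (chr15:99432038-99558340). The next held 6 peaks over 128 kb at Wnt10b, Ddn, Prkag1, Kmt2d and Dhh (chr15:98768160-98896447), and another 4 peaks over 53.7 kb at Prpf40b and Fmnl3 (chr15:99303100-99356820). Gene bodies held 31 of the 45, and start windows held 3, those of Zfp641, Prpf40b (an alternative start of a splicing factor gene) and Nckap5los (an antisense transcript).

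The 5 strong empty-vector-only peaks were 168 to 632 bp wide with fold enrichments of 2.15 to 3.23, against medians of 632 bp and 3.02 for all empty vector peaks of the stretch. The strongest, at chr15:99711469-99711776 in Smarcd1, a subunit of the BAF remodelling complex, had a −log10 q of 33.1 at a fold enrichment of just 2.15, and lay 1099 bp from a Klf4 peak. The second, at chr15:97810115-97810288 in Hdac7, was 174 bp wide (−log10 q 27.2, fold enrichment 2.79). Others flanked Wnt1, at chr15:98787909-98788201 (−log10 q 26.89) and chr15:98799189-98799820 (26.94), and the fifth lay at chr15:99899214-99899381 between Lima1 and Fam186a (22.9). All 5 lay within 774 to 2240 bp of a Klf4 peak. Ranks 6 to 10 had a −log10 q of 16.4 to 10.1 and lay in Asic1, Vdr, Col2a1 and Spats2 and near Wnt1. The highest fold enrichment of any empty-vector-only peak of the stretch was 3.45, against 7.90 for the Klf4-only peaks.

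Over all strengths, Klf4-only peaks of the stretch were 398 bp wide at the median, with 2.63-fold enrichment and −log10 q 7.81. Over the main chromosomes the Klf4-only medians were 355 bp, 3.29 and 4.75. Empty-vector-only peaks had medians of 308 bp, 2.23 and 2.08, against 280 bp, 2.95 and 2.63. Fold enrichment was thus lower than for list-specific peaks at large in both lists, while −log10 q was higher in the Klf4 list and lower in the empty vector list. Peaks of the other list were closer than usual: the median distance was 2019 bp for Klf4-only peaks (4858 bp over the main chromosomes) and 1647 bp for empty-vector-only peaks (4836 bp). The stretch is also denser in peaks, with 443 empty vector peaks against a median of 126 over the 669 stretches. The part of density in these distances was not tested.

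Of the strongest shared peaks, those at Kansl2, Larp4, Fmnl3 and Lmbr1l lay on start windows, and those at Gm33909 and between Rhebl1 and Dhh did not, though Rhebl1 has no start in the table. At Kansl2 the empty vector peak (chr15:98533511-98534732) had a −log10 q of 968 at 8.30-fold enrichment, rank 17 of its list, and the Klf4 peak (chr15:98533492-98534724) 792 and 8.52, rank 21. At Larp4, which encodes an RNA-binding protein, the values were 813 and 9.04 (chr15:99972397-99973699) with the empty vector and 653 and 8.87 with Klf4. A peak outside coding genes at the lncRNA gene Gm33909 had 740 and 8.49 (chr15:98180939-98181840) and 691 and 9.496. At Fmnl3, a formin that builds actin filaments, the empty vector peak over the start had 710 and 10.7. The peak shared by the ends of Rhebl1, a small GTPase gene, and Dhh had 692 and 7.51 with the empty vector and 564 and 7.52 with Klf4. Over the start of Lmbr1l, a membrane receptor gene, the Klf4 peak had 530 and 6.64. Shared peaks lay on start windows more often than list-specific ones: 45 of 354 against 2 of 89 with the empty vector, and 50 of 350 against 14 of 204 with Klf4.

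Peaks just inside and just outside the edges of the stretch were all weak. With the empty vector the last peak before it had a −log10 q of 2.82 and the first inside 2.75, and the last inside had 3.04 and the first after it 1.69. With Klf4 these were 1.68, 3.85, 2.23 and 2.41. All 8 peaks had a counterpart in the other list and lay at Slc38a4 or Larp4.

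A −log10 q depends on how many fragments a region holds as well as on its fold enrichment, so the 2 measures were set side by side. Median fold enrichment in the stretch was 3.02 with the empty vector and 3.10 with Klf4, both the third lowest of 669 stretches (medians over stretches 4.28 and 4.07). Median −log10 q was 10.3 and 13.54, ranks 132 and 3 from the top. Fold enrichment and −log10 p together fix the local background and the pileup that the peak caller must have seen, if its Poisson model holds. This estimated background, relative to the median of the same list, was 3.71 for empty vector peaks of the stretch (quartiles 2.01 and 9.43) and 4.17 for Klf4 peaks (2.03 and 10.9), both second of 669. With 1 Mb added at both edges it was 2.81 and 2.73. On the rest of chromosome 15 the medians were 1.046 and 1.11. An estimated background under the list median was seen for 1.35% of the stretch's peaks with the empty vector and 5.05% with Klf4, the lowest and the second lowest of the 669. Background was thus high in this stretch with either plasmid. The lists hold neither read depth nor DNA copy number, and the part of either in this background was not tested.

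**Figure D2:**
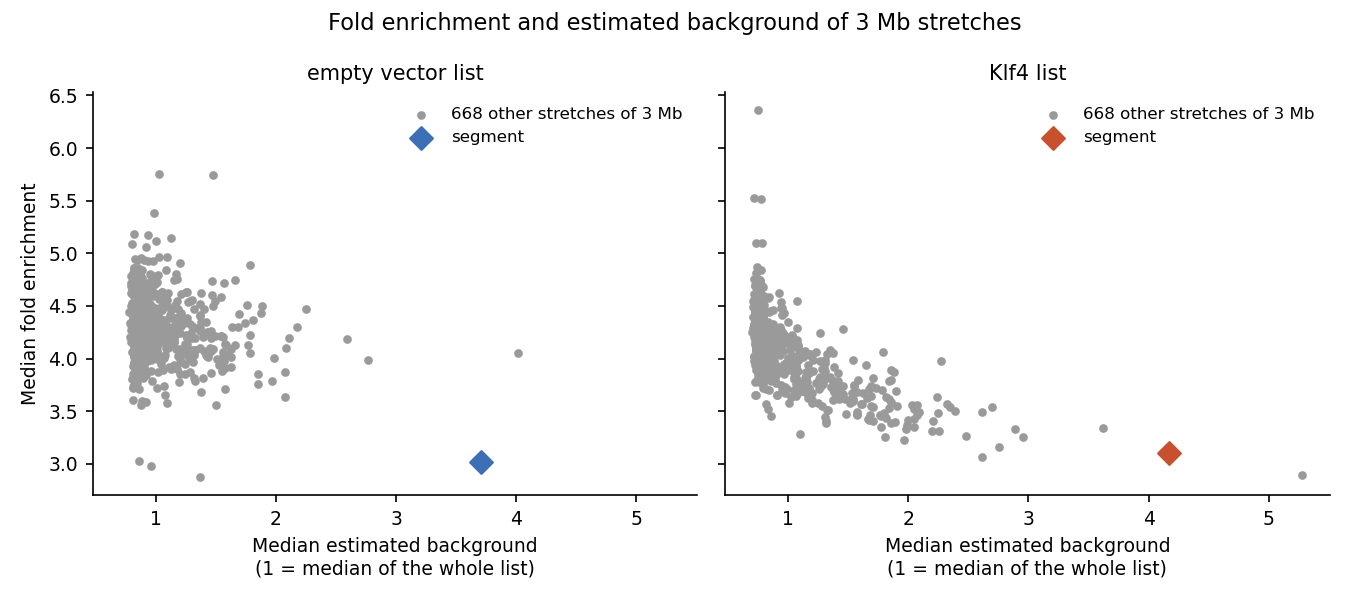
Each point is a stretch of 3 Mb with at least 50 peaks in each list, by the median estimated local background of its peaks (horizontal, relative to the median of the list) and their median fold enrichment (vertical), 1 panel per list. The diamond is the chromosome 15 stretch, at 3.71 and 3.02 with the empty vector and 4.17 and 3.10 with Klf4, with high background and low fold enrichment in both panels.

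Along the chromosome, background was uneven and high over a block somewhat longer than the stretch. In steps of 500 kb its median was 1.22 with the empty vector and 1.18 with Klf4 just before 97 Mb and 1.92 and 1.93 just after. It was highest in chr15:98500001-99000000, over the genes from Kansl2 to Tuba1a, at 8.84 and 12.3. In chr15:98000001-98500000, where the olfactory receptor genes lie, it was 1.56 and 1.68. It was 2.28 and 1.93 in chr15:100000001-100500000 and 0.972 and 0.975 in the next step. Strong Klf4-only peaks numbered 4, 10, 4, 9, 10 and 8 in the 6 steps of the stretch. In the steps just before and after the stretch there were 1 and 3. Of the steps shown outside the stretch, the one with the highest background in both lists, chr15:89000001-89500000 (3.43 and 3.41), had 4 strong Klf4-only peaks, and chr15:92500001-93000000 (0.888 and 0.826) had 3. The part of background in these counts was not tested.

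**Figure D3:**
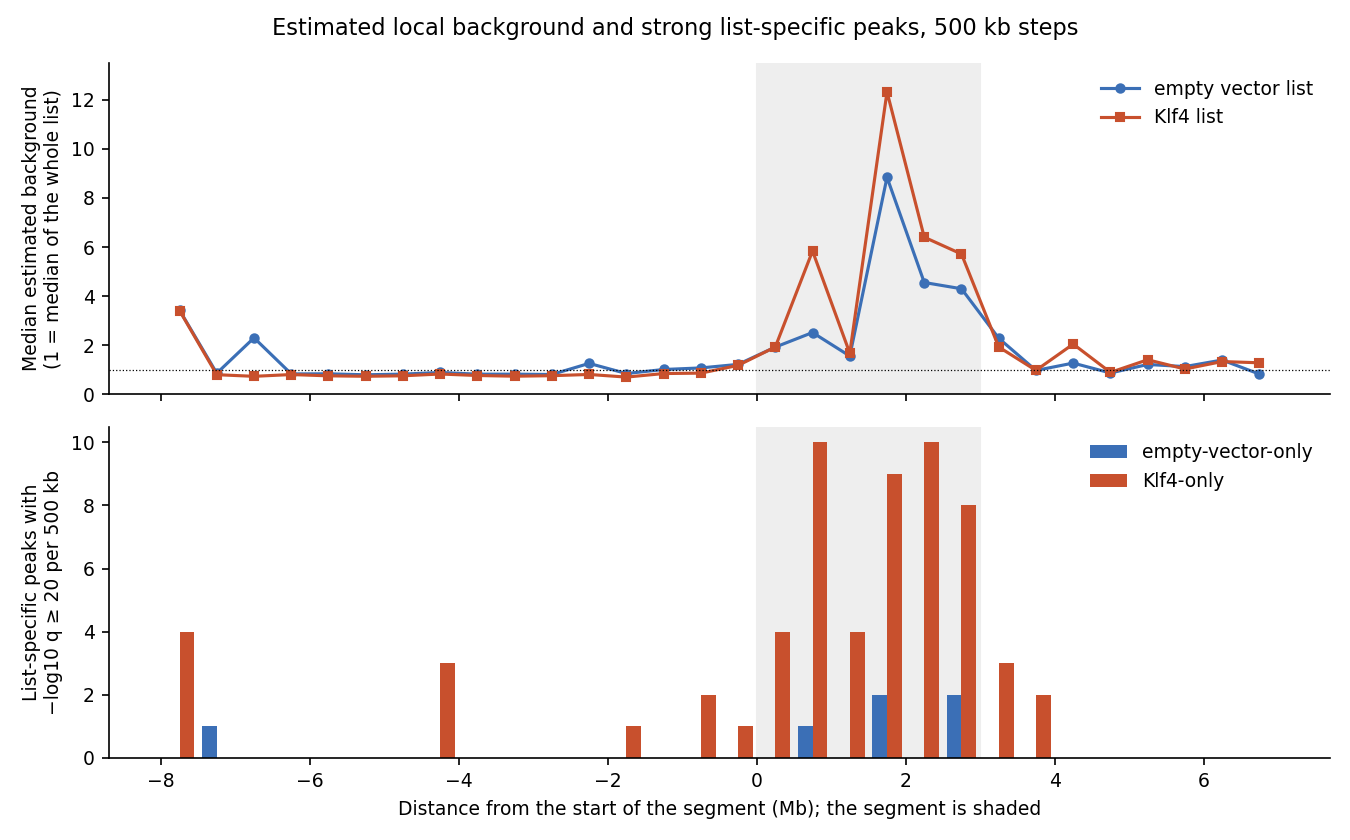
Median estimated local background of peaks in steps of 500 kb (top, relative to the median of each list) and number of list-specific peaks with a −log10 q of at least 20 per step (bottom), by distance from the start of the shaded stretch. Background reaches 8.84 with the empty vector and 12.3 with Klf4 inside the shaded part and is near 1 on most steps outside it; strong Klf4-only peaks number 4 to 10 per step inside.

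The share of Klf4-only peaks was therefore given both by −log10 q and by fold enrichment. At a −log10 q from 20 to 50, 36.4% of the Klf4 peaks of the stretch were Klf4-only (39 of 107, interval 27.9 to 45.9%), against 11.6% elsewhere. At 50 or more these shares were 4.92% (6 of 122, interval 2.27 to 10.3%) and 0.725%. At the same fold enrichment the stretch did not have more Klf4-only peaks than the rest over most of the range. From 2 to 3 the shares were 47.3% (interval 40.5 to 54.1%) and 57.8%, from 3 to 4 36.8% (29.1 to 45.3%) and 42.8%, and from 4 to 6 17.5% (11.7 to 25.3%) and 28.5%. At 6 or more the stretch had 17.0% (8 of 47, interval 8.89 to 30.1%) against 11.5%. For Klf4-only peaks the share was thus higher than elsewhere in the upper classes of −log10 q, and by fold enrichment only in the highest class, where the interval includes the share elsewhere. For empty-vector-only peaks the share at a −log10 q from 20 to 50 was 7.35% (5 of 68, interval 3.18 to 16.1%), against 0.193% elsewhere. By fold enrichment it was 43.1% (22 of 51, interval 30.5 to 56.7%) against 33.3% below 2, 35.5% against 49.3% from 2 to 3, and 8.51% against 27.3% from 3 to 4.

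**Figure D4:**
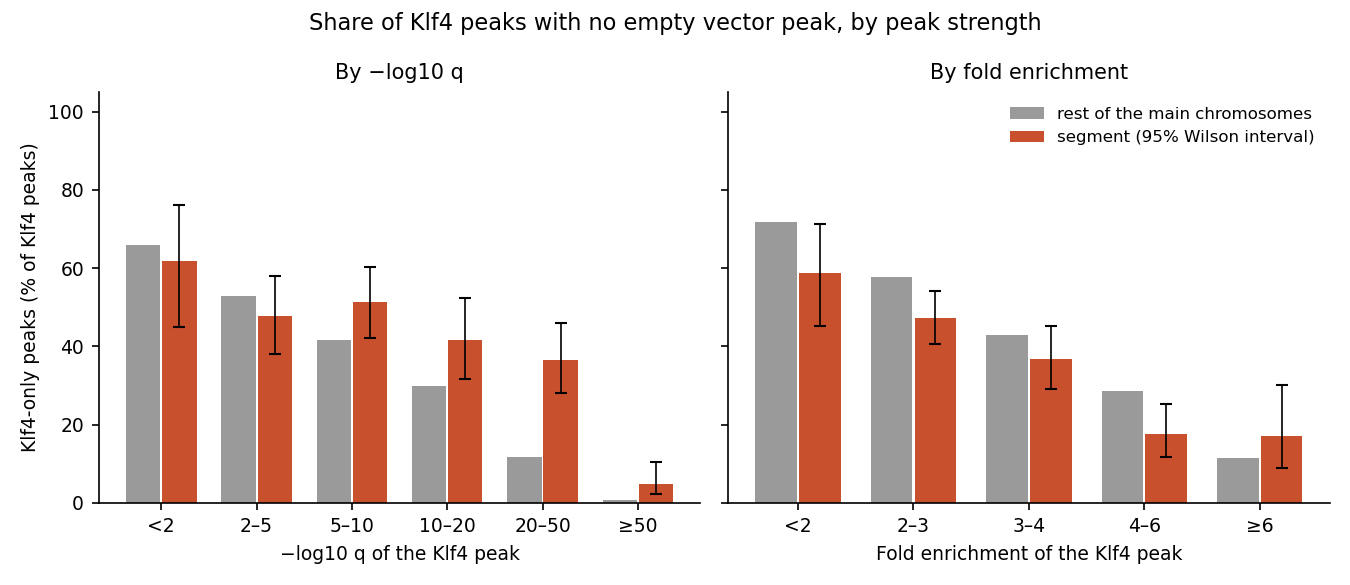
Percent of Klf4 peaks without an empty vector peak, by −log10 q (left) and by fold enrichment (right) of the Klf4 peak, for the stretch (coloured, with 95% Wilson intervals) and for the rest of the main chromosomes (grey). On the left the coloured bar is higher from 5 upward (36.4% against 11.6% from 20 to 50), and on the right it is lower in every class below 6.

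Of 7 other stretches taken as the highest in peak number, background with Klf4 or strong Klf4-only peaks, background ranged from 1.27 and 1.77 (chromosome 4 from 139 to 142 Mb) to values above those of the chromosome 15 stretch. On chromosome 10 from 79 to 82 Mb background was higher (4.02 and 5.28), and 19 strong Klf4 peaks were Klf4-only with 0 strong empty-vector-only peaks. On chromosome 11 from 115 to 118 Mb, with 370 and 549 peaks, background was 2.08 and 2.89, and the counts were 21 and 0. Median fold enrichment with the empty vector was 4.05 and 4.10 there, against 3.02 on chromosome 15, and with Klf4 2.90 and 3.33, against 3.10. The Klf4-only shares were 44.7% and 42.4%, above the 36.8% of the chromosome 15 stretch.

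Genes were compared by the bases under peaks between 10 kb before and 10 kb after each gene, as log2((Klf4 bp + 500) / (empty vector bp + 500)). Of the 75 coding genes, 64 had more covered length with Klf4 and 11 less, against 62.3% and 22.7% of all 21887 coding genes. With 50 kb on both sides 2 had less, and no share over all coding genes is given for that window. The median log2 ratio was 0.37, against 0.13 over all coding genes, 3258 of which had no peak in either list. A log2 ratio of 1 or more was seen at 6 of the 75 genes, close to the share over all coding genes (8.51%, 1862 of 21887). None of the 75 had −1 or less, against 0.242% of all coding genes. Windows of neighbouring genes overlap, so 1 peak can count for several genes, and covered length counts how much was called and not how high the signal was.

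**Figure D5:**
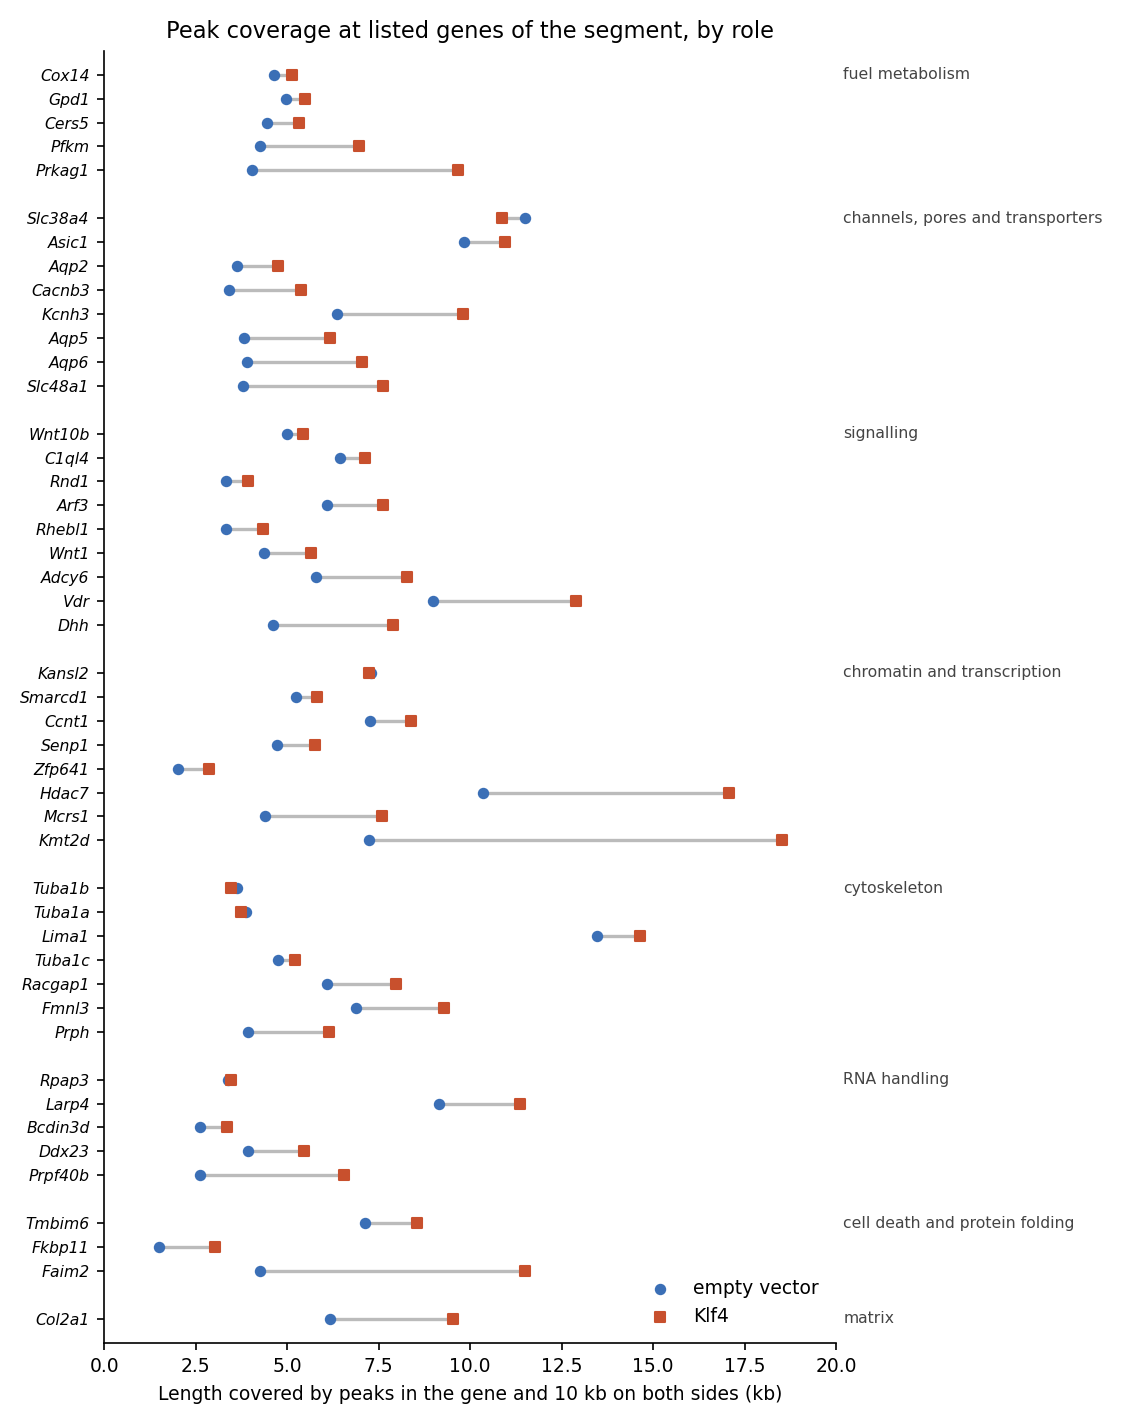
Length covered by peaks (kb) in and within 10 kb of the 46 listed genes of the stretch, grouped by role, with the empty vector (circles) and with Klf4 (squares). Klf4 squares lie to the right at 42 of the 46 genes, farthest at Kmt2d (18527 against 7233 bp) and Faim2 (11490 against 4265 bp). Of all 75 coding genes of the stretch, 64 had more covered length with Klf4.

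The counts by group that follow stand beside 85.3% of the 75 coding genes of the stretch and 62.3% of all coding genes with more covered length. Groups are small and windows of neighbouring genes overlap, so these counts do not tell a group from the stretch as a whole. Among genes of fuel metabolism, all 5 had more covered length with Klf4 (median log2 ratio 0.23). Prkag1 had 9656 bp against 4022 bp (log2 ratio 1.17). At Pfkm 9 Klf4 peaks covered 6967 bp and 5 empty vector peaks 4257 bp (0.65). Its start under peaks of both lists had a fold enrichment of 7.31 with the empty vector (chr15:98108003-98109134) and 4.90 with Klf4 (chr15:98107345-98109053). The 4 Klf4-only peaks of Pfkm lay inside the gene body, the strongest at chr15:98128866-98129568 with a −log10 q of 23.0. Gpd1 (glycerol-3-phosphate dehydrogenase), Cox14 (assembly of cytochrome oxidase) and Cers5 (ceramide synthesis) had log2 ratios of 0.13 to 0.23.

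Of 8 genes for channels, pores and transporters, 7 had more covered length with Klf4 and 1 less (median 0.59). Cacnb3 had 5370 bp against 3405 bp (0.59). Its shared peak at chr15:98631318-98632629 had a −log10 q of 198 with Klf4 and 201 with the empty vector at fold enrichments of 3.93 and 4.36, and an estimated background of 33.3 and 28.5 times the median of the list. The 3 aquaporin genes, which form water pores, had 0.34 (Aqp2), 0.63 (Aqp5) and 0.78 (Aqp6). Slc48a1, a haem transporter, had the highest value of the group (0.92), Kcnh3, a potassium channel, had 0.59 and Asic1, an acid-sensing sodium channel, 0.15. The exception was Slc38a4, an amino acid transporter, with 10879 bp against 11485 bp (−0.07).

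All 9 signalling genes had more covered length with Klf4 (median 0.34). Dhh was the farthest apart (7898 against 4613 bp, 0.72). At its start the Klf4 list had a low peak (chr15:98897590-98898868, −log10 q 7.78, fold enrichment 1.74), and a stronger Klf4-only peak lay within the gene (chr15:98895250-98896447, −log10 q 38.4). Vdr had 12884 bp against 8993 bp (0.50), with 8 of its 17 Klf4 peaks and 1 of its 10 empty vector peaks list-specific. At the start window of Vdr the empty vector peak covered all 300 bases and the Klf4 peak 69. Adcy6, an adenylyl cyclase that makes cAMP, had 0.48, Wnt1 0.34 and Wnt10b 0.11. Wnt1 had 7 empty vector peaks, 3 of them list-specific, and 5 Klf4 peaks, none list-specific, which together covered 4354 and 5658 bp. Arf3, Rnd1 and Rhebl1, small GTPases, had 0.30, 0.21 and 0.34, and C1ql4, a secreted C1q-like protein, 0.13.

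Among 8 genes of chromatin and transcription, 7 had more and 1 less (median 0.34). Kmt2d stood apart with 18527 bp against 7233 bp (1.30). Inside the gene 3 Klf4 peaks were wide: those at chr15:98851350-98854590, chr15:98861529-98864603 and chr15:98869435-98872577 were 3241, 3075 and 3143 bp wide with fold enrichments of 1.98, 2.25 and, over the start, 3.47, on an estimated background of 20.05 to 23.9 times the median of the list. The empty vector peaks they overlap were 419 to 1681 bp wide, on a background of 4.05 to 19.2. Hdac7 had 17065 bp against 10340 bp (0.70). Of its 4 starts in the table, 2 lay under Klf4-only peaks, chr15:97843467-97845063 (−log10 q 7.46, fold enrichment 2.01) and chr15:97814702-97815071 (8.92 and 1.82). Zfp641 had the simplest pattern, with 2 empty vector peaks covering 2008 bp, none on its start and none above a −log10 q of 4.34, and 3 Klf4 peaks covering 2850 bp (0.42). Mcrs1, of the NSL complex, had 0.72, and Senp1, a SUMO protease, Ccnt1, a cyclin of transcription elongation, and Smarcd1 had 0.26, 0.19 and 0.14. Kansl2 had −0.01.

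The 7 cytoskeleton genes had the lowest median of the groups with 3 or more genes (0.12), with 5 more and 2 less. Tuba1a (3747 against 3874 bp) and Tuba1b (3474 against 3618 bp) had −0.04 and −0.05, with 3 and 4 peaks in each list and none list-specific. Tuba1c had 7 peaks in each list, all overlapped (0.12). These tubulin genes are close copies, so reads could be placed on the wrong one. Prph had 0.58: a single Klf4 peak of 3468 bp (chr15:99053064-99056531, −log10 q 97.3) spanned the start printed above, where the empty vector list had 2 separate peaks (chr15:99053122-99054063 and chr15:99055465-99056616) with a gap over the start window. Fmnl3 had 0.41, Racgap1, which acts in cell division, 0.37 and Lima1, an actin-binding protein, 0.12.

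All 5 genes of RNA handling had more covered length with Klf4 (median 0.32), from Rpap3, a chaperone cofactor of RNA polymerase assembly (0.03), to Prpf40b (1.17). Prpf40b had 6537 bp against 2620 bp, with 5 of its 8 Klf4 peaks and 0 of its 4 empty vector peaks list-specific. Bcdin3d, an RNA methyltransferase, had 0.32, Larp4 0.30 and Ddx23, a splicing helicase, 0.43.

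Faim2 had the highest log2 ratio of the stretch, 1.33, with 13 Klf4 peaks covering 11490 bp and 7 empty vector peaks covering 4265 bp. Of the Klf4 peaks 7 were list-specific, 5 of them with a −log10 q of at least 20, and none of the empty vector peaks was. The strongest empty vector peak there, chr15:99527353-99528416, had a fold enrichment of 5.43 and a −log10 q of 117, and the Klf4 peak that overlapped it, chr15:99526535-99528264, had 2.76 and 39.95. The estimated background of the Klf4 peaks in the gene body was 8.38 to 15.8 times the median of the list, and that of the empty vector peaks 2.51 to 10.5 times. The part of this background in the extra peaks was not tested. Fkbp11, a prolyl isomerase of the secretory pathway, had 0.82 (3020 against 1491 bp) and Tmbim6, an endoplasmic reticulum protein that limits cell death, 0.25. Col2a1, the collagen gene of cartilage, had 0.59.

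Outside these groups, Rapgef3, a cAMP-activated exchange factor of small GTPases, had 13390 bp against 5873 bp (1.12) and Lmbr1l 7832 bp against 3640 bp (1.01). The 9 olfactory receptor genes, for receptors of the nasal epithelium, had 6 more and 3 less. They held the lowest values of the stretch, Olfr281 at −0.97 (716 against 1875 bp), Olfr286 at −0.77 (1186 against 2385 bp) and Olfr285 at −0.12. Lalba, a milk protein gene, had −0.10. At Olfr281 the highest −log10 q was 2.44 with the empty vector and 21.9 with Klf4, at Olfr286 5.66 and 56.9, at Olfr285 1.73 and 16.0, and at Lalba 37.9 and 31.8.

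Gene starts gave a view of the stretch that does not depend on gene length. A start again counts as under a peak where at least 1 base of its window is covered. Of 60 coding genes with a start in the table, 41 had a start under peaks of both lists, 9 under a Klf4 peak only, 1 under an empty vector peak only and 9 under neither. At Aqp5 and LOC115488470, counted under both lists, the peaks reached the window but not the start itself. The Klf4-only share was 15% (interval 8.10 to 26.1%), against 6.71% of all 17492 coding genes, and the empty-vector-only share 1.67%, against 0.583%. The 9 genes were Olfr287, H1f7, Zfp641, Olfr279, Dhh, Prph, C1ql4, Aqp2 and Asic1. Only at Zfp641 was that peak both Klf4-only and strong. At Prph, C1ql4 and H1f7 the Klf4 peak over the window overlapped an empty vector peak beside it. At C1ql4 that peak (chr15:99087928-99088707) reached only 51 bases at the far end of the window and did not cover the start itself. At Aqp2, Asic1 and Dhh the peak was Klf4-only with a −log10 q of 6.64, 12.6 and 7.78, and at the olfactory receptor genes Olfr287 and Olfr279 it was 8.52 and 1.85.

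Counted by window, 20 of the 112 start windows of the stretch lay under Klf4 peaks only (17.9%, interval 11.9 to 26.0%), against 7.08% of all RefSeq start windows. Of these, 16 held CACCC (80%), and 5 held the longer CCCCACCC (25%), which contains it; both strands were searched. Among the 58 windows under peaks of both lists 41 held CACCC (70.7%) and 5 the longer motif (8.62%), and among the 32 under neither 21 (65.6%) and 3 (9.38%). Over all RefSeq start windows CACCC was found in 78.5% of those under Klf4 peaks only, 64.1% of those under peaks of both lists and 48.0% of those under neither. The longer motif was in 21.5%, 12.1% and 6.27%. Under empty vector peaks only, 0 of 2 windows of the stretch held CACCC, against 54.7% of such windows over the whole set. Of all windows of the stretch 69.6% held it. Median GC content was 56% in the windows under Klf4 peaks only and 61.3% in those under both.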

How the data were processed

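ATAC-seq was run on 8 MIN6 samples, grouped by the labels. Bowtie2, MACS2 and DiffBind and the build mm10 (GRCm38) are named per the submitters' processing notes; versions, options, read filters and how libraries were merged are not given in the sources used here. The deposited lists give every peak's fold (a ratio to local background) and the −log10 of its p-value and q-value, in the authors' columns. They describe peaks within a list and were not tested between lists. Peaks on scaffolds were left out (165 and 188). A pileup and a local background were computed as the Poisson count and mean that give a peak's deposited fold (pseudocount 1) and −log10 p. They are estimates, since broad peaks carry averages. Gene ends, start windows and sequences are from RefSeq GRCm38.p6, and all 46 listed genes were found. The members, gene lists and rules were chosen with earlier results of these data known. Named are the listed genes, the 5 highest and 5 lowest genes by log2 ratio, and in each list the 10 strongest list-specific and 5 strongest overlapped peaks by −log10 q. Other peaks and the printed starts were chosen after their values were seen, in place of the planned starts near the strongest list-specific peaks. Overlap, coverage and background steps were tested on simulated data. For the background the data were simulated under the same Poisson model, so this checks the calculation and not the model. Python 3.11.15, numpy 2.4.6, pandas 2.3.3 and scipy 1.17.1 were used.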

Additional observations from a re-analysis of the deposited data

How the results depend on the processing

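No paired analysis was possible because each plasmid has 1 merged list with no values per library, and for the same reason no replicate was left out. Of 63 values under alternatives, 27 moved and 36 did not. In every setting where these were computed, the Klf4 list had more peaks and more covered length. More genes also had more covered length with Klf4 than had less. Shares and backgrounds have no direction of their own. A peak number or share counts as moved when outside its 95% interval, a length ratio by over 5%, a background by over 10% and a number of genes by over 1.5 times. Thresholds of 10 and 50, the fold limit, the top 20000 peaks and all alternatives for strong peaks were chosen after seeing the data. The cause was not tested.

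With both lists limited to a −log10 q of at least 5, the peak number ratio was 1.54, the length ratio 1.53, the Klf4-only share 42.3%, the empty-vector-only share 10.8%, and the background 4.67 with the empty vector and 4.79 with Klf4. The length ratio was 1.43 at 10, 1.23 at 50, 1.19 at a fold of at least 4 and 1.41 with the top 20000 peaks. The Klf4-only share was 23.8% at 50 and 46.0% when overlap required 50% of a peak. The empty-vector-only share was 13.2% at 10, 13.53% at 20, 9.80% at 50, 10.7% with the top 20000 peaks and 25.5% with 50% covered. Shares of the whole lists under these settings are not given. Background was 3.50 with Klf4 at 20, 3.07 with the empty vector among peaks 500 bp or wider, 2.81 and 2.73 with 1 Mb added at both edges, and 4.13 and 5.10 in the middle 2 Mb. The share of strong Klf4 peaks that were Klf4-only was 27.1% with 50% covered, 25.6% from a −log10 q of 10 and 4.92% from 50. Genes with less covered length numbered 2 in place of 11 with windows of 50 kb, for which no share over all coding genes is given. Depth is unknown, so it cannot be said which peaks missing from a list were only too shallow to be called.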
